A study of Mus musculus with 143 samples.

Results

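The Rab genes of the mouse oocyte were followed here through loss of the RNA exosome nucleases Dis3 and Exosc10 and through meiotic maturation. Members were the protein-coding genes whose symbol is Rab, a number and an optional letter, and 59 of the 55573 gene IDs in the poly(A) files and of the 55487 in the RiboMinus files met that rule. Each RNA library came from a single oocyte of mutant or control mice, the mutants having been made with CRISPR/Cas9, per the labels' protocols, which name no Cre driver, strain or animal for an oocyte. The poly(A) set held fully grown germinal vesicle (GV) oocytes (8 control, 15 Dis3 conditional knockout, cKO), oocytes labelled GV3h (8 and 16), taken from ovaries and cultured in M2 medium for 3 hours, and metaphase II (MII) eggs from oviducts of superovulated mice (8 and 16). The RiboMinus set, total RNA depleted of ribosomal RNA and primed with random hexamers, held 8 libraries in each of 6 groups: adult GV control and Dis3cKO, and oocytes of postnatal day 20 (p20) that were control, Dis3cKO, Exosc10cKO or dcKO, the double knockout. Controls are labelled only as control. P-values measure the spread between oocytes, since the labels do not say which oocytes share a mouse, and RiboMinus titles carry 2 tags a group.

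Rab proteins are small GTPases that mark membranes. A guanine nucleotide exchange factor (GEF) loads a Rab with GTP, the loaded Rab recruits effectors such as tethers and motor adaptors, a GTPase-activating protein (GAP) ends the signal, and a GDP dissociation inhibitor takes the prenylated Rab off the membrane for reuse. Rab1 and Rab6 act at the endoplasmic reticulum and Golgi, Rab5 on early endosomes, Rab7 and Rab9 on late endosomes, Rab8 and Rab11 in recycling and polarized delivery, and Rab3 and Rab27a on secretory granules. In mouse oocytes Rab11a vesicles are known to move the spindle together with actin, and Rab27a and Rab3 members are known to be needed for the release of cortical granules at fertilization. Dis3 and Exosc10 degrade RNA from its 3′ end.

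Library totals ran from 4843964 to 15412200 counts in the poly(A) set and from 8492102 to 35429028 in the RiboMinus set. Dis3 itself, in TMM-scaled CPM (a gene's counts as a share of its library's scaled total), was 7.3 to 18 in GV3h controls and 0.2 to 5.2 in GV3h Dis3cKO, and control and Dis3cKO ranges did not overlap in any of the 5 comparisons of these groups. In p20 oocytes Exosc10 was 103.3 to 137.2 CPM in controls, 0.4 to 10.6 in Exosc10cKO and 3.1 to 14.8 in dcKO. Oocyte marker genes summed to between 8641 and 30278 CPM in each library, granulosa and cumulus markers to between 51.2 and 320.6, and theca and stroma markers to at most 12.9. The granulosa and cumulus sum was 74.4 to 112.8 CPM in GV3h controls against 51.2 to 97.1 in GV3h Dis3cKO, and 105.7 to 238.2 in MII controls against 61.1 to 101.8 in MII Dis3cKO; its part in the results at those stages was not tested. The markers of that list were uneven. Over the 71 poly(A) libraries Foxl2 and Amh had a median of 0 CPM, with 54 and 44 libraries at 0. Fshr had a median of 0.62 CPM, and Cyp19a1 had 23.2, with 0 libraries at 0. The MII Dis3cKO library 15 had the lowest correlation with its group's median profile, at 0.769, and results that rest on it are given without it.

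Of the 59 Rab genes, 43 had enough counts to be tested in every fit and 9 in none (Rab15, Rab17, Rab19, Rab20, Rab27b, Rab33a, Rab34, Rab39 and Rab42, whose highest level in any library was 3.57 CPM). The other 7 were tested in some fits. By compartment the members were 11 of the endoplasmic reticulum and Golgi, 9 of early endosomes, 7 of late endosomes, lysosomes and autophagy, 10 of recycling and polarized delivery, 10 of regulated secretion and 12 others. For 26 of them the annotated gene overlaps another gene (Rab8b with Gm40528, Rab5a with Pp2d1, Rab5b with Pmel, Rab7 with Gm34872), and since the counting is not stated to use strand, their reads cannot be told apart from those of the partner. No overlapping gene was annotated for Rab8a, Rab5c, Rab11a, Rab24, Rab27a or Rab39b.

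The Rab8 and Rab5 paralogs are followed in most detail, so their upstream DNA is shown first. The Rab8 pair (Rab8a, Rab8b) and the Rab5 set (Rab5a, Rab5b, Rab5c) encode closely related proteins, and their RNA levels are given side by side below. Differences between paralogs in response were not tested. Each line gives the 120 bases before the start in the RefSeq promoter table of build GRCm38.p6, 5′ to 3′ on the gene's strand; for Rab5b the last 16 of them lie inside the gene's annotated span, which begins further upstream. Capitals mark the GC box GGGCGG or its reverse complement CCGCCC, and the CCAAT box or its reverse complement ATTGG.
Rab8a (chr8:72161080-72161199, plus strand): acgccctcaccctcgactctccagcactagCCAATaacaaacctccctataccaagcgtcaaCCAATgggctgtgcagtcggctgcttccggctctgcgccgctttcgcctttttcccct
Rab8b (chr9:66919706-66919825, minus strand): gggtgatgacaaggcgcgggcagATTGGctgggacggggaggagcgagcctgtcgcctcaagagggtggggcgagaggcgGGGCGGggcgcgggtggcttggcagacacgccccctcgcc
Rab5a (chr17:53479114-53479233, plus strand): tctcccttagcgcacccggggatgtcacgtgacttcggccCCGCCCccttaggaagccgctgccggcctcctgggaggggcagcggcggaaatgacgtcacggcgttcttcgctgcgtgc
Rab5b (chr10:128696269-128696388, minus strand): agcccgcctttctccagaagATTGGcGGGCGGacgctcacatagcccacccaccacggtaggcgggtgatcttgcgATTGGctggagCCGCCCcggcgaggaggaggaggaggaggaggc
Rab5c (chr11:100738216-100738335, minus strand): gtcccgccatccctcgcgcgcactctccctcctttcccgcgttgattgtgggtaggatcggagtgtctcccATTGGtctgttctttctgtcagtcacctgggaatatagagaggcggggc

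In these 120 bases Rab8a held CCAAT boxes and no GC box, whereas Rab8b held both kinds. Rab5a held a GC box only, Rab5b held both, and Rab5c held ATTGG only. RefSeq promoters of 250 bases before the start were found for 48 of the 59 members. A GC box lay in 36 of the 48 (75%) against 45.8% of 17492 promoters of the same length, and a CCAAT box in 24 (50%) against 39.5%, with no match of one overlapping the other in a member. TATAAA was found on either strand in 4 (8.33%) against 13.7%, and the E-box CACGTG in 5 (10.4%) against 7.61%. The median promoter was 63.2% G and C with 18 CpG, against 56.4% and 11 over all promoters. These are counts of letters and were not tested against the RNA.

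Loss of Dis3 changed Rab RNA in both directions at every stage of the poly(A) set. In GV oocytes 3 of 49 tested members rose and 6 fell (adjusted p under 0.05 in the quasi-likelihood F test of edgeR, with Benjamini-Hochberg correction over every gene tested), or 18.4%, against 21.9% of all genes tested (13.6% up and 8.33% down). In GV3h oocytes 11 rose and 8 fell (38.8% against 38.6%, 22.9% up and 15.7% down), and in MII eggs 12 rose and 7 fell (38.8% against 42.1%, 27.3% up and 14.8% down). These shares lay near the background, and the median log2 fold changes of the members (0.09, 0.05 and 0.21) lay near those of all genes (0.04, 0.07 and 0.16). Fitted on the MII libraries alone, 8 of 42 members were called at MII (3 up, 5 down) against 30.6% of 14166 genes. Of the 19 MII calls, Rab1a, Rab1b, Rab8a, Rab11a, Rab26 and Rab39b missed the threshold in that fit (adjusted p 0.0502 to 0.24), and Rab3c, Rab7b, Rab24, Rab25 and Rab37 were not tested in it. Across stages 5 were called in the same direction in all 3 comparisons, which share no libraries, namely Rab3b and Rab5b (higher) and Rab3c, Rab8b and Rab27a (lower). That is 10.2% of the tested members, against 12.3% of all genes (8.55% up and 3.73% down). With counts scaled to the ERCC spike-in RNA added to each lysate instead, which moved the median of all genes by -0.27 at GV, -0.02 at GV3h and 0.36 at MII, the splits were 0 up and 9 down (7.27% and 13.3% of all genes), 9 up and 5 down (17.5% and 10.6%), and 21 up and 3 down (37.6% and 4.31%). In that scaling 2 members, Rab3c and Rab8b, were called in the same direction at all 3 stages; Rab3b was then not called at GV or GV3h (adjusted p 0.62 and 0.16), Rab5b not at GV (0.61, adjusted p 0.18), and Rab27a not at GV3h or MII (adjusted p 0.11 and 0.12).

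**Figure D1:**
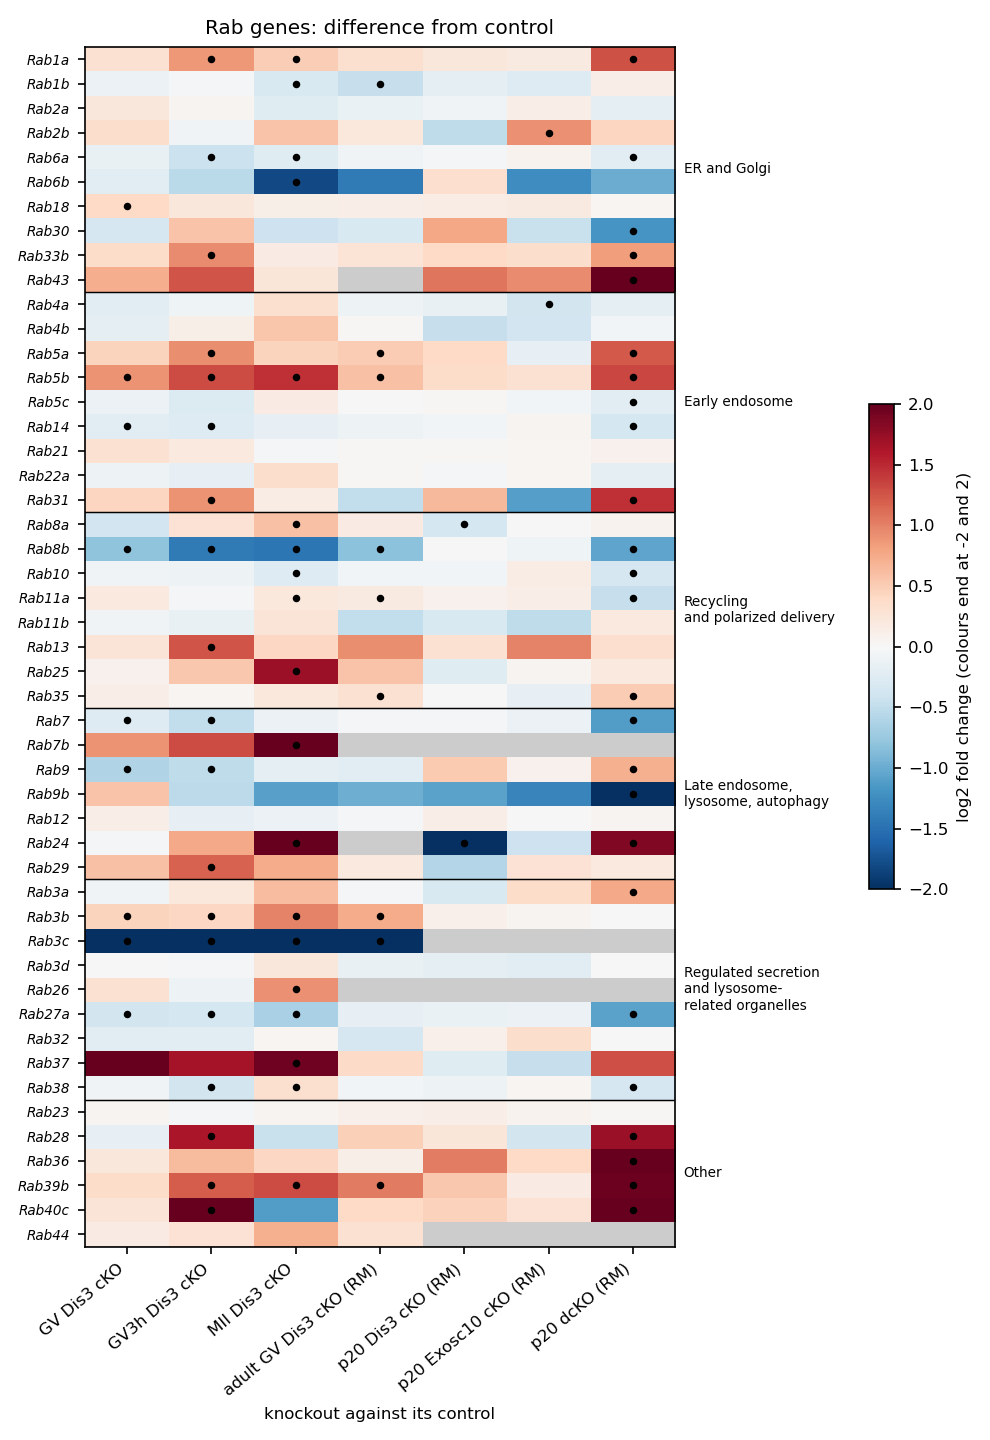
Log2 fold changes of the tested Rab genes, by compartment (rows), in the comparisons of knockout with control (columns), on a colour scale from lower (blue) to higher (red) in the knockout; dots mark adjusted p under 0.05, grey marks a gene that was not tested, and RM is RiboMinus. Rab8b was lower in every called comparison and Rab5b higher, and the single knockouts at p20 held few marked cells.

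Of the Rab8 pair, which directs exocytic vesicles to the plasma membrane and cilium, Rab8b was called lower without Dis3 at the 3 poly(A) stages. Rab8a was called lower at none of them, though its GV value was also negative and close to the threshold. Rab8b was 40.1 to 66.2 CPM (median 46.0) in GV controls and 19.1 to 37.9 (27.2) in GV Dis3cKO, so all 15 knockout oocytes lay below all controls (log2 fold change -0.81 ± 0.13 SE, adjusted p 7.3e-07). In GV3h oocytes it was 44.6 to 56.7 (51.0) against 10.4 to 28.6 (18), again with all 16 knockouts below all controls (-1.42 ± 0.12, adjusted p 6.5e-15). MII eggs held 71.0 to 102 (84.8) against 23.5 to 44.2 (30.5), also without overlap (-1.44 ± 0.12). The effect at MII minus that at GV was -0.63 ± 0.18 (adjusted p 0.014), but with ERCC scaling it was -0.006 (adjusted p 0.99). Rab8a was 53.2 to 82.3 CPM (73.1) in GV controls and 39.9 to 74.6 (55.3) in GV Dis3cKO, ranges that overlap (-0.38 ± 0.15, adjusted p 0.052). The lowest of those controls, library 1 at 53.2, stood apart from the next at 70.0. In GV3h the Rab8a medians were 58.0 against 68.3 (0.29 ± 0.15, adjusted p 0.12). In MII eggs Rab8a rose, from 9.44 to 22.6 (17.1) in controls to 8.11 to 49.1 (25.3) without Dis3 (0.58 ± 0.15, adjusted p 0.0014), a call that ended in the fit of the MII groups alone (0.56 ± 0.22, adjusted p 0.0502). Its effect thus moved upward between GV and MII, by 0.96 ± 0.21 (adjusted p 8.2e-04).

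**Figure D2:**
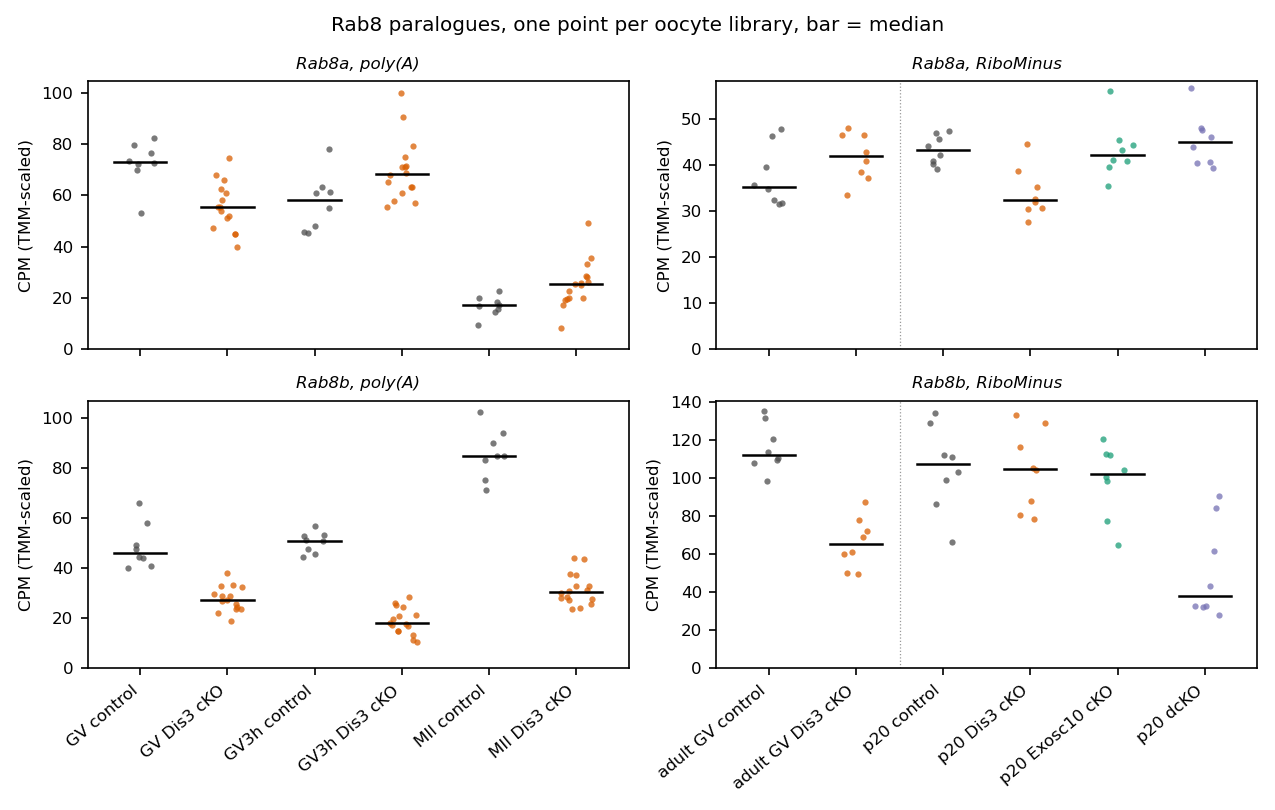
Level of Rab8a and Rab8b in each single-oocyte library (points; CPM, linear axis from 0) by group, with the group median as a bar. Rab8b of Dis3cKO oocytes sits below that of controls in GV, GV3h, MII and adult GV oocytes but not at p20, and Rab8a ranges overlap throughout.

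In the Rab5 set, the GTPases of early endosome fusion, Rab5b rose at all 3 poly(A) stages, Rab5a at GV3h and Rab5c at none. Rab5b rose from 1.95 to 6.88 CPM (median 3.85) in GV controls to 4.58 to 12.2 (7.82) in GV Dis3cKO, with 9 of 15 knockouts above all controls (0.90 ± 0.28, adjusted p 0.014). In GV3h oocytes all 16 knockouts (6.61 to 15.5, median 11) lay above all controls (2.39 to 5.76, median 4.92; 1.30 ± 0.28, adjusted p 1.4e-04). In MII eggs it was 0.648 to 5.07 (2.94) against 2.36 to 19.8 (7.0), with overlap (1.45 ± 0.29, adjusted p 3.3e-05). Rab5a rose at GV3h, from 3.52 to 11.1 CPM (5.58) to 7.57 to 19.8 (10.8), ranges that overlap (0.93 ± 0.22, adjusted p 5.2e-04); its log2 fold changes of 0.45 ± 0.22 at GV and 0.44 ± 0.22 at MII did not pass (adjusted p 0.14 and 0.098). Rab5c had log2 fold changes of -0.12 ± 0.13, -0.27 ± 0.13 and 0.16 ± 0.13 at the 3 stages, none past the threshold. Rab14, which links early endosomes and Golgi, fell slightly at GV (-0.22 ± 0.08, adjusted p 0.030; with no filter on low counts -0.24, adjusted p 0.056) and GV3h (-0.26 ± 0.08, adjusted p 0.0041). Rab31, close in sequence to Rab22a, rose at GV3h (0.90 ± 0.35, adjusted p 0.032), a call that was lost without GV3h Dis3cKO library 16 (0.67, adjusted p 0.098) and in the fit of the GV3h groups alone (adjusted p 0.074).

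**Figure D3:**
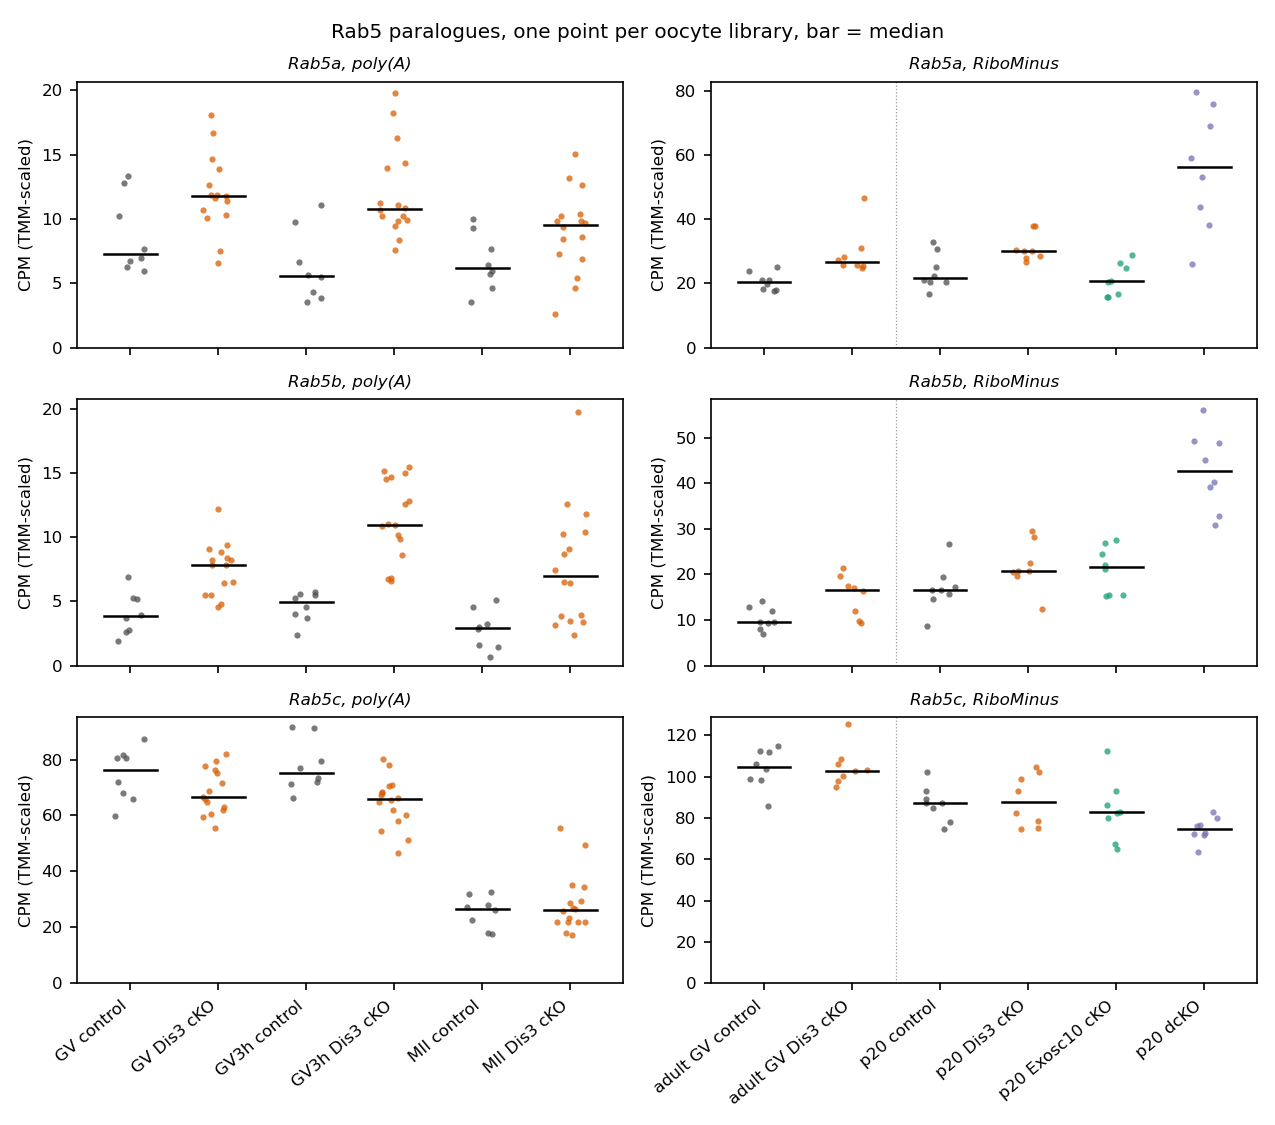
Level of Rab5a, Rab5b and Rab5c in each single-oocyte library (points; CPM, linear axis from 0) by group, with the group median as a bar. Rab5b lies above controls in Dis3cKO at GV3h and in all 8 double knockout oocytes at p20, while Rab5c shows no such step.

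Among the Rabs of regulated secretion, Rab3b was called higher and Rab3c lower at all 3 stages. Rab3b was 47.4 to 93.0 CPM (median 76.7) in GV controls and 55.3 to 129 (99.8) in Dis3cKO, and 9.43 to 22.7 (14.4) against 18.6 to 58.4 (28.0) in MII eggs. Both differences passed the test, with overlapping ranges, at 0.45 ± 0.15 (adjusted p 0.024, and 0.074 without GV control library 2) and 1.00 ± 0.16 (adjusted p 4.4e-07); 13 of 16 MII knockouts lay above all MII controls. At GV3h the difference was 0.41 ± 0.15 (adjusted p 0.025), and this call was lost without GV control library 1 (adjusted p 0.053). Rab3c, a rarer RNA of at most 4.05 CPM in any poly(A) control, was at 0 counts in 10 of 15 GV, 11 of 16 GV3h and 14 of 16 MII knockouts, and fell at all 3 stages (fitted values -3.04 ± 0.85, -3.55 ± 0.84 and -3.12 ± 0.85). Rab27a, the granule Rab of cortical and melanosome secretion, went from 61.2 to 84.1 CPM (71.1) to 43.7 to 67.2 (55.4) at GV (-0.37 ± 0.12, adjusted p 0.018). Its log2 fold change was -0.36 ± 0.12 at GV3h and -0.65 ± 0.12 at MII (adjusted p 6.6e-06), with overlapping ranges each time. Rab38, which serves lysosome-related organelles, fell at GV3h (-0.37 ± 0.08) and rose at MII (0.33 ± 0.08, adjusted p 4.2e-04), and its MII effect minus its GV effect was 0.40 ± 0.11 (adjusted p 0.0084). Rab37 and Rab26, secretory granule Rabs of low level, rose at MII (1.95 ± 0.81 and 0.91 ± 0.37); the Rab37 call was lost without MII Dis3cKO library 15 (1.47, adjusted p 0.12) or MII control library 8 (1.76, adjusted p 0.085), and with no filter (adjusted p 0.081).

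In the early secretory pathway Rab1a, which controls transport from the endoplasmic reticulum to the Golgi, rose at GV3h from 25.2 to 36.4 CPM (median 29.9) to 43.4 to 71.4 (54.7), with all 16 knockouts above all controls (0.87 ± 0.16, adjusted p 5.6e-06). It also rose at MII (0.49 ± 0.16, adjusted p 0.0082) and was 0.31 ± 0.15 at GV (adjusted p 0.15). Its paralog Rab1b had -0.30 ± 0.11 at MII (adjusted p 0.024), a direction that turned with ERCC scaling (0.069, adjusted p 0.80) and a call that was lost without MII control library 8 (adjusted p 0.061). Rab6a, the Golgi Rab of retrograde transport, fell at GV3h from 245 to 353 CPM (287) to 152 to 266 (214), ranges that overlap (-0.43 ± 0.08, adjusted p 1.6e-05), and at MII by 0.24 ± 0.08. Its MII fall was smaller than the 0.36 by which ERCC scaling moved the median of all genes at MII. Rab6b fell at MII (-1.80 ± 0.53). Rab18 of lipid droplets rose at GV (0.40 ± 0.10, adjusted p 0.0023), and Rab33b, a Golgi Rab that binds Atg16l1, rose at GV3h (0.94 ± 0.21). The Rab18 call was lost with ERCC scaling (0.15, adjusted p 0.55 by edgeR).

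Rab7, which matures late endosomes for fusion with lysosomes, fell at GV3h from 228 to 297 CPM (median 264) to 142 to 280 (190), with 15 of 16 knockouts below all controls (-0.50 ± 0.09, adjusted p 3.5e-06). At GV its value was -0.26 ± 0.09 (adjusted p 0.024; without GV control library 1 it was -0.23 at adjusted p 0.066), and at MII -0.11 ± 0.09 (adjusted p 0.31). Rab9, which returns receptors from late endosomes to the Golgi, fell at GV (-0.59 ± 0.17) and GV3h (-0.50 ± 0.17). With ERCC scaling its GV3h value was -0.50 ± 0.24 and missed the threshold (adjusted p 0.11 by edgeR). Several members of low level rose at GV3h or MII. At GV3h these were Rab40c (2.24 ± 0.63), Rab28 (1.64 ± 0.51), Rab13 (1.27 ± 0.43), Rab39b (1.21 ± 0.47; with no filter adjusted p 0.051) and Rab29 (1.19 ± 0.34). At MII they were Rab24 (3.24 ± 0.84), Rab7b (2.87 ± 0.90), Rab25 (1.71 ± 0.57) and Rab39b (1.30 ± 0.52). MII control eggs held Rab24 at 0 counts in 5 of 8 libraries and Rab7b in 6 of 8, so those fitted folds have an uncertain size. Of the remaining MII calls, Rab10 of exocytosis fell (-0.26 ± 0.09), and Rab11a rose by 0.21 ± 0.08 (adjusted p 0.043), a call lost without MII Dis3cKO library 15 (adjusted p 0.055) or GV control library 1 (adjusted p 0.077). The Rab10 fall was smaller than the 0.36 by which ERCC scaling moved the median of all genes at MII. No tested member had a Dis3 effect at GV3h that differed from that at GV by edgeR (0 of 49 against 2.04% of all genes, 1.37% up and 0.667% down). Unadjusted p was under 0.05 for 7. DESeq2 called 2, against 3.13% of all genes, and the fit of only the 4 groups compared called 5 of 46 (3 up, 2 down, against 5.02% of its genes). Leaving out GV control library 1 or MII Dis3cKO library 15 gave 2 each, against 3.16% and 2.98% of all genes.

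Total RNA of adult GV oocytes gave an independent set of libraries for the same loss. There 6 of 45 tested members rose and 3 fell (20% against 28.1% of all genes, 15.7% up and 12.4% down), and 4 of the 5 members shared by the poly(A) stages were called in the same direction, Rab3b and Rab5b higher and Rab3c and Rab8b lower. Of all 1671 genes called one way at the 3 poly(A) stages and tested here, 74.0% were called in that direction too. Rab8b was 98.8 to 136 CPM (median 112) in controls and 49.4 to 87.4 (65.3) in Dis3cKO, with all 8 below all controls (-0.81 ± 0.11, adjusted p 3.3e-05). Rab8a was 31.4 to 47.7 (35.3) against 33.5 to 48.0 (41.8), with overlap (0.16 ± 0.11, adjusted p 0.30). Rab3b rose from 30.4 to 46.0 (33.1) to 42.3 to 67.9 (62.6), 7 of 8 knockouts standing above all controls (0.74 ± 0.11, adjusted p 1.1e-04). Rab5a was 17.5 to 25.1 (20.5) against 24.9 to 46.5 (26.6), nearly without overlap (0.51 ± 0.13, adjusted p 0.0071), and Rab5b was 6.94 to 14.2 (9.49) against 9.41 to 21.3 (16.7), with overlap (0.58 ± 0.19, adjusted p 0.032). Rab1b fell from 45.1 to 55.1 (49.7) to 30.7 to 40.2 (36.6) without overlap (-0.47 ± 0.08, adjusted p 1.7e-04). Rab35, an endocytic recycling Rab, rose by 0.30 ± 0.07, Rab11a by 0.19 ± 0.05 and Rab39b by 1.04 ± 0.38, and Rab3c fell (-2.52 ± 0.88). Rab7 (-0.04 ± 0.10) and Rab27a (-0.16 ± 0.09) did not pass here.

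Rab5b, Rab39b and Rab3c lost their calls without Dis3cKO library AM1713_1 (adjusted p 0.065, 0.13 and 0.059), which left 6. The fit of all 6 RiboMinus groups ended 2 calls on named members. The 2 title tags of the knockout group differed in size: Rab8b was -1.07 for tag AM1713 and -0.60 for AM1757 (mean log2 over control), and Rab5b 0.88 and 0.21. All 9 called members went the same way in both tags, and 8 were larger in AM1713. With counts summed for each tag, edgeR called 0 of 51 members (4 at unadjusted p under 0.05), Rab8b being at -0.85 (adjusted p 0.15); the same fit called 0 of all 20190 genes (3577 at unadjusted p under 0.05). With ERCC scaling, which moved the median of all genes by -0.55, 0 members rose and 20 of 45 fell (40.1% of all genes fell), and Rab5a, Rab35 and Rab11a turned to -0.05, -0.22 and -0.36. Gene counts divided by ERCC counts came to 336 to 487 in adult controls and 152 to 360 in Dis3cKO.

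Maturation moved more than 1 in 2 of the Rab RNAs, relative to the other RNAs. From GV oocytes to MII eggs in controls 14 of 49 members rose and 15 fell (59.2% against 58.5% of all genes, 22.7% up and 35.8% down), with a median of 0.00 against -0.27 for all genes. Relative to the other RNAs of the egg, Rab6a (235 to 299.4 CPM, median 276, at GV and 601 to 757, median 686, at MII) and Rab14 (286 to 395, median 357, and 665 to 1075, median 834) rose without overlap, by 1.35 ± 0.10 and 1.27 ± 0.09. Rab26 (1.16 ± 0.44), Rab12 of autophagic and transferrin receptor traffic (1.12 ± 0.18), Rab18 (0.92 ± 0.12) and Rab8b (0.81 ± 0.15) rose as well. The steepest falls were those of Rab25 (-4.47 ± 0.62), Rab24 (-4.23 ± 0.90), Rab4b (-3.04 ± 0.33), Rab7b (-2.73 ± 0.97) and Rab39b (-2.63 ± 0.58). Rab4b, a Rab of rapid recycling, went from 16.2 to 29.7 CPM (22.2) to 1.07 to 5.33 (2.81), and Rab8a from 53.2 to 82.3 (73.1) to 9.44 to 22.6 (17.1; -2.11 ± 0.18), both without overlap. By compartment, 5 of 10 tested genes of the endoplasmic reticulum and Golgi rose and 1 fell, while 2 of 9 of the early endosome rose and 5 fell, among them Rab5c (-1.54 ± 0.15), Rab22a and Rab21. Of 8 recycling members 3 rose and 3 fell, and of 9 in regulated secretion 2 rose and 3 fell. Of 7 late endosome members 1 rose and 2 fell, and of 6 in the group of others 1 rose and 1 fell. Differences between compartments were not tested.

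These directions are relative to the other RNAs captured in the poly(A) libraries. With ERCC scaling, which moved the median of all genes by -1.85, 46 of 49 members fell and 0 rose, as 87.5% of all genes fell; Rab6a and Rab14 then read -0.50 and -0.58 and Rab8b -1.06. Gene counts divided by ERCC counts came to 108 to 162 in GV controls and 42.2 to 52.2 in MII controls. The libraries capture RNA by its poly(A) tail, so a level here is that of tailed RNA.

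In Dis3cKO oocytes 17 members rose and 15 fell from GV to MII (65.3% against 63.3% of all genes, 24.8% up and 38.5% down), and 22 were called in the same direction as in controls, 12 up and 10 down (44.9% of those tested, against 46.7% of all genes, 17.9% up and 28.7% down). Rab14 rose by 1.32 ± 0.07, Rab6a by 1.27 ± 0.07, Rab3d by 0.92 ± 0.09 and Rab26 by 1.77 ± 0.31. Rab40c (-2.90 ± 0.54), Rab25 (-2.84 ± 0.39), Rab4b (-2.29 ± 0.23), Rab39b (-1.70 ± 0.39) and Rab13 (-1.68 ± 0.35) fell. With ERCC scaling, 0 rose and 41 fell (82.3% of all genes fell), and the median of all genes moved by -1.24. A change that depended on Dis3 passed for 5 members (3 up, 2 down; 10.2% against 13.2% of all genes, 9.28% up and 3.88% down): beside Rab8a, Rab8b and Rab38, Rab24 (3.26 ± 1.02, adjusted p 0.023) and Rab2a (-0.46 ± 0.15, adjusted p 0.022). Rab24 missed the threshold in the fit of only the groups compared (3.24, adjusted p 0.059) and without GV control library 2, its highest GV control (2.81, adjusted p 0.059); without MII control library 8 it was 4.13 (adjusted p 0.0079). Rab8a fell from GV to MII by 2.11 in controls but by 1.14 ± 0.12 without Dis3, and Rab8b rose by 0.81 in controls and had 0.18 ± 0.11 (adjusted p 0.13) without it, values that were both -1.06 with ERCC scaling. That scaling gave 17 up and 0 down for this difference (29.4% and 0.696% of all genes), moved the median of all genes by 0.61 and put Rab2a at 0.16.

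**Figure D4:**
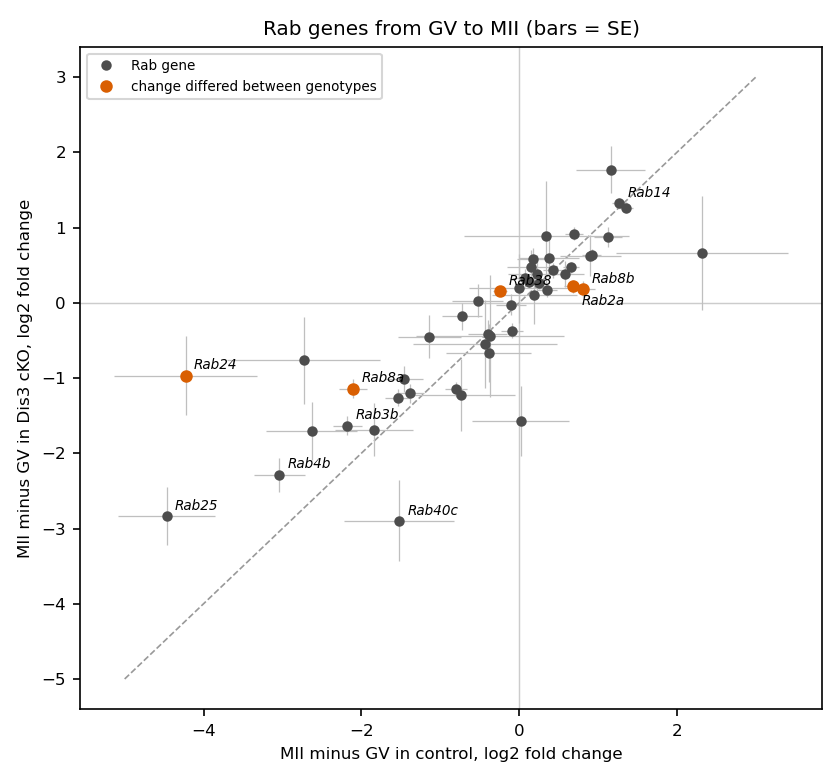
Log2 fold change from GV to MII of each tested Rab gene in controls (horizontal axis) and in Dis3cKO oocytes (vertical axis), with standard errors as bars, a dashed line of equal change and orange points where the change differed between genotypes. Rab8a lies above the diagonal (-2.11 and -1.14) and Rab8b below it (0.81 and 0.18).

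Control oocytes were also compared before and after 3 hours of culture. Rab3d, a granule Rab, rose by 0.45 ± 0.12 (adjusted p 0.021) and Rab38 by 0.30 ± 0.09 (adjusted p 0.045) from GV to GV3h, and 0 of 49 fell (4.08% called against 2.71% of all genes, of which 1.14% were higher and 1.56% lower). Rab3d was 151 to 229 CPM (median 181) at GV and 199 to 269 (253) at GV3h, and Rab38 was 250 to 348 (277) and 280 to 403 (350), both with overlap. With ERCC scaling, which moved the median of all genes by 0.22, edgeR called 0 (5 at unadjusted p under 0.05), against 0.679% of all genes. Fitted on the 2 groups alone, 4 of 43 members were called (2 up, 2 down) against 15.1% of 13785 genes. Without GV control library 2 the Rab38 call was lost (0.27, adjusted p 0.12), which left 1.

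At p20 each single knockout changed 2 of the tested Rab genes. Without Dis3, 0 of 45 members rose and 2 fell (4.44% against 7.37% of all genes, 3.61% up and 3.76% down). With no filter on low counts 1 of 57 members was called, lower, against 3.04% of all genes. Rab24, which takes part in autophagy, was 0.348 to 2.19 CPM (median 0.888) in controls and at most 0.458 without Dis3, with 4 libraries at 0 (-2.97 ± 0.70, adjusted p 0.0051). Rab8a went from 39.0 to 47.4 (43.1) to 27.7 to 44.5 (32.3), with 7 of 8 knockouts below all controls (-0.35 ± 0.10, adjusted p 0.026). Rab8b was 66.3 to 134 (108) in p20 controls and 78.6 to 133 (105) in p20 Dis3cKO, a difference of -0.01 ± 0.20 with a 95% interval from -0.40 to 0.37. Compared directly, the Dis3 effect in adult oocytes minus that at p20 was -0.82 ± 0.25 for Rab8b (adjusted p 0.030) and -0.75 ± 0.24 for Rab9 (adjusted p 0.038), and 0.49 ± 0.14 for Rab8a (adjusted p 0.023), 0.61 ± 0.17 for Rab3b and 4.47 ± 1.16 for Rab24. These are 5 of 49 members (10.2%) against 9.32% of all genes, 5.34% up and 3.98% down. In adults Rab24 was 0.04 to 0.471 CPM (median 0.274) in controls. Adult Dis3cKO held 0 to 2.73 (median 0.189), with 2 libraries at 0. Without p20 control library 2_4 3 were called, Rab8b and Rab9 missing the threshold (adjusted p 0.051 and 0.050). With ERCC scaling, which moved the median of all genes by -0.21, Rab24 alone was called (Rab8b -1.09, adjusted p 0.075; Rab8a 0.30, adjusted p 0.62). Counts summed by title tag gave 0 calls of 55 by edgeR for this difference (6 at unadjusted p under 0.05), and 0.307% of all genes.

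Without Exosc10, 1 member rose and 1 fell (4.44% against 7.45% of all genes, 3.95% up and 3.5% down). Rab2b of the Golgi rose from 2.99 to 6.82 CPM (4.74) to 5.13 to 13.9 (8.68; 0.92 ± 0.23, adjusted p 0.0094), and Rab4a of rapid recycling fell from 47.1 to 61.7 (54.3) to 34.5 to 49.5 (44.1; -0.36 ± 0.09, adjusted p 0.0092), both with overlap. Of the members called in the double knockout, described next, none passed here by edgeR: Rab5a was at -0.16 ± 0.18, Rab7 at -0.12 ± 0.14, Rab8b at -0.09 ± 0.20 and Rab27a at -0.11 ± 0.13, and values farther from 0 included Rab9b (-1.31 ± 0.82) and Rab31 (-1.09 ± 0.37, adjusted p 0.065). Rab3c had 104 counts over the 8 p20 controls and 0 in the 8 Exosc10cKO, at least 36.1-fold lower against a floor of 3 counts over the group, and was not tested. Of those counts 53 came from control library 2_1, and without it the limit was 20.3-fold. Counts summed by title tag gave 0 calls by edgeR in either single knockout (5 members at unadjusted p under 0.05 for Dis3 and 6 for Exosc10), in fits that called 1.37% and 0.832% of all genes. ERCC scaling gave 0 calls by edgeR for Exosc10 (2 at unadjusted p under 0.05), against 2.29% of all genes. The fit of only the groups compared gave 4 calls of 42 for Exosc10 (2 up, 2 down), against 8.31% of 14424 genes.

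Loss of both nucleases changed 25 of 45 members, 14 up and 11 down (55.6% against 53.7% of all genes, 26.6% up and 27.1% down; medians 0.07 and -0.01). Rab5a, Rab5b and Rab1a rose together. Rab5b was 8.76 to 26.8 CPM (median 16.6) in controls and 30.8 to 56.0 (42.7) in dcKO, with all 8 above all controls (1.33 ± 0.18, adjusted p 2.1e-07). Rab5a was 16.7 to 32.9 (21.8) against 26.2 to 79.6 (56.1), with 7 of 8 above (1.23 ± 0.18), and Rab1a was 23.4 to 46.1 (40.7) against 63.8 to 123 (90.1), with all 8 above (1.28 ± 0.15, adjusted p 1.3e-08). Rab5c went the other way, barely, from 74.9 to 102 (87.4) to 63.7 to 82.8 (74.5; -0.23 ± 0.10, adjusted p 0.049), a call lost without dcKO library 2_1 (adjusted p 0.067). The largest rises were in members of low level: Rab36 (2.70 ± 0.51), from 0.406 to 2.19 (1.34) to 2.53 to 15.9 (8.13) without overlap, then Rab43 (2.43 ± 0.89), Rab40c (2.0 ± 0.34), Rab39b (1.95 ± 0.40) and Rab24 (1.85 ± 0.59). Rab28, Rab31, Rab33b, Rab9 and Rab35 rose by 0.50 to 1.72. Rab3a, a synaptic and granule Rab, rose by 0.76 ± 0.32 (adjusted p 0.044), a call lost without p20 control library 2_4, Dis3cKO library 1_2 or dcKO library 2_1 (adjusted p 0.068, 0.054 and 0.089).

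Of the 11 falls, 2 were among 10 tested members of the endoplasmic reticulum and Golgi group and 2 among 9 of early endosomes. Late endosomes had 2 among 6, recycling 3 among 8 and regulated secretion 2 among 7, where 27.1% of all genes fell. In the group of others 0 of 5 fell and 4 rose. Differences between compartments were not tested. Rab7 was 216 to 338 CPM (267) in controls and 69.0 to 202 (126) in dcKO, all 8 below all controls (-1.11 ± 0.14, adjusted p 6.1e-08). Rab27a was 130 to 153 (139) against 30.1 to 101 (64.6), and Rab11a 151 to 184 (155) against 93.5 to 135 (118), neither overlapping (-1.07 ± 0.14 and -0.47 ± 0.09). Rab8b was 66.3 to 134 (108) against 28.2 to 90.7 (38.3), with 6 of 8 dcKO oocytes below all controls (-1.05 ± 0.20, adjusted p 3.8e-05). Rab8a was 39.0 to 47.4 (43.1) against 39.2 to 56.6 (45.0), a difference of 0.07 ± 0.10. Rab9b, a paralog of Rab9, had 157 counts over the controls and 0 over the 8 dcKO libraries, at least 34.0-fold lower, while Rab9 rose (0.71 ± 0.18). Rab3c had 0 counts in dcKO as well, at least 22.5-fold lower (12.7-fold without p20 control library 2_1), and was not tested. Rab30 of the Golgi fell by 1.17 ± 0.37, and Rab10, Rab14, Rab38 and Rab6a by 0.22 to 0.36. With ERCC scaling, which moved the median of all genes by -0.08, 12 rose and 6 fell (17.8% and 20.4% of all genes), and Rab8a read -0.02.

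**Figure D5:**
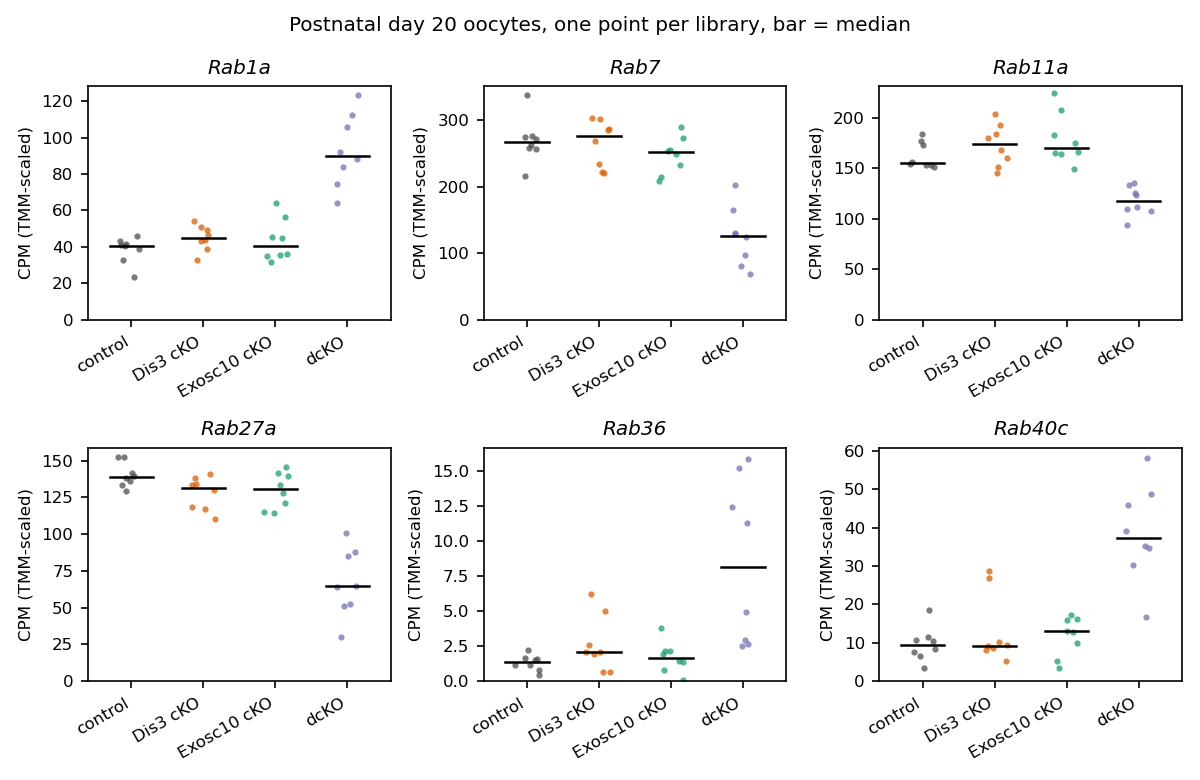
Level of Rab1a, Rab7, Rab11a, Rab27a, Rab36 and Rab40c in each single p20 oocyte (points; CPM, linear axis from 0) in control, Dis3cKO, Exosc10cKO and dcKO groups, with the group median as a bar. All 8 dcKO oocytes sit below all controls for Rab7, Rab11a and Rab27a and above all controls for Rab1a and Rab36.

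The dcKO oocytes of the 2 title tags differed in degree. Rab8b was -1.74 in tag 1 and -0.59 in tag 2 (mean log2 over control), Rab7 -1.51 and -0.80, Rab27a -1.51 and -0.73, Rab5a 1.58 and 0.76, and Rab36 3.40 and 1.32. Rab11a (-0.54 and -0.40) and Rab1a (1.47 and 1.05) were closer. Of the 25 called members 24 went the same way in both tags, Rab9b being at 0 counts in both, and 19 were larger in tag 1. With counts summed by tag, 21 of 51 members were called (11 up and 10 down, against 31.8% of all genes in that fit), including Rab8b (-1.07, adjusted p 0.023), Rab7 (-1.12, adjusted p 0.0030) and Rab5b (1.29, adjusted p 0.0013). Without dcKO library 2_1, whose Rab levels lay nearest to those of controls, Rab8b was at -1.25.

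Set against each single knockout, the dcKO differed in 24 members from Dis3cKO (14 up, 10 down; 53.3% against 51.5% of all genes, 26.0% up and 25.5% down) and in 27 from Exosc10cKO (15 up, 12 down; 60% against 49.2%, 24.2% up and 25.0% down). From Dis3cKO, Rab24 (4.81 ± 0.73), Rab36 (1.68 ± 0.49) and Rab40c (1.54 ± 0.34) stood highest, and Rab30 (-1.95 ± 0.38), Rab7 (-1.09 ± 0.14) and Rab8b (-1.04 ± 0.20) fell beside Rab9b. From Exosc10cKO, Rab31 (2.56 ± 0.38), Rab36 (2.29 ± 0.50) and Rab24 (2.27 ± 0.60) stood highest, and Rab7 (-0.99 ± 0.14), Rab8b (-0.96 ± 0.20) and Rab27a (-0.96 ± 0.14) fell. With ERCC scaling the splits were 15 up and 5 down from Dis3cKO (4289 and 1575 of 15882 genes), and 10 up and 7 down from Exosc10cKO (2322 and 2693 genes). The interaction term, by which the double loss differed from the sum of the single effects on the log2 scale, passed for 20 members, 12 up and 8 down (44.4% against 31.4% of all genes, 14.7% up and 16.7% down). It was positive for Rab5a (0.99 ± 0.25), Rab1a (0.87 ± 0.21), Rab35 (0.67 ± 0.13), Rab31 (1.91 ± 0.52), Rab28 (1.84 ± 0.43), Rab11b (1.01 ± 0.31) and Rab24 (5.23 ± 0.92). It was negative for Rab7 (-0.97 ± 0.20), Rab8b (-0.95 ± 0.28), Rab27a (-0.82 ± 0.19), Rab11a (-0.70 ± 0.12) and Rab30 (-1.51 ± 0.52). Rab5b (0.66 ± 0.25) and Rab40c (1.25 ± 0.47) lost this call without p20 control library 2_4 (adjusted p 0.11 and 0.096) or Exosc10cKO library 2_4 (0.079 and 0.065), and Rab8a (0.42 ± 0.14) without the former (adjusted p 0.055). ERCC scaling gave 8 up and 1 down (10.2% and 3.38% of all genes), with the median of all genes moved by 0.25, and counts summed by tag gave 4 calls of 51 (6.25% of all genes).

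The adult Dis3 loss and the p20 double loss share no libraries. Rab5a, Rab5b, Rab35 and Rab39b rose and Rab8b fell in both, which is 5 of 43 members tested in both (11.6%) against 2069 of 14756 genes (7.62% up and 6.4% down). With ERCC scaling none of those 4 rises was called by edgeR in adults (Rab5a -0.05, Rab35 -0.22, Rab5b 0.046 and Rab39b 0.51, adjusted p 0.34 to 0.91), while the Rab8b fall was called in both sets (-1.38 and -1.01). Rab3b, which rose in the adult set, was at -0.01 ± 0.12 in dcKO (adjusted p 0.93).

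Between adult GV and p20 control oocytes 4 of 49 members were higher in adults and 5 lower (18.4% against 19.1% of all genes, 8.69% up and 10.4% down). Rab36 was 2.21 to 5.63 CPM (median 2.97) in adults and 0.410 to 2.17 (1.32) at p20, without overlap (1.33 ± 0.46, adjusted p 0.032). Rab5b was 7.19 to 14.4 (9.79) against 8.84 to 26.5 (16.4; -0.67 ± 0.18, adjusted p 0.0072), and Rab28 was lower by 1.12 ± 0.35, both with overlap. Rab5c (0.30 ± 0.09), Rab6a (0.27 ± 0.08) and Rab23 (0.25 ± 0.08) were higher, and Rab29 (-1.09 ± 0.40), Rab40c (-1.02 ± 0.37) and Rab33b (-0.48 ± 0.17) lower in adults. Leaving out p20 control library 2_4 left 5 calls, with Rab6a, Rab29, Rab40c and Rab33b lost (adjusted p 0.053, 0.10, 0.13 and 0.097). With ERCC scaling, which moved the median of all genes by -1.69, 40 members fell and 0 rose (85.7% of all genes fell), and counts summed by tag gave 0 calls by edgeR (8 at unadjusted p under 0.05), against 1.04% of all genes.

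The partners of the Rab cycle were followed as lists of effectors, GAPs, GEFs and prenylation or recycling factors. In dcKO against p20 controls 5 of 34 tested effectors rose and 13 fell (median -0.17), 13 of 27 GAPs rose and 9 fell (median 0.30), 7 of 31 GEFs rose and 13 fell, and 2 of 7 prenylation factors rose and 1 fell, against the background of 26.6% up and 27.1% down. In GV Dis3cKO 2 of 36 effectors rose and 6 fell, against 13.6% and 8.33% of all genes. In GV3h Dis3cKO 7 of 36 effectors rose and 14 fell, against 22.9% and 15.7% of all genes, and in MII 3 rose and 8 fell, against 27.3% and 14.8%. In adult Dis3cKO 1 of 31 effectors rose and 9 fell, against 15.7% and 12.4%. Partners named next were chosen after their values were seen, and all passed the test in each of the 4 comparisons given. Their values at GV, and in any comparison with ERCC scaling, are not given. That scaling moved the median of all genes by -0.02 at GV3h, 0.36 at MII, -0.55 in adults and -0.08 in dcKO. Rims1, a Rab3 effector of the exocytic active zone, fell by 2.28 at GV3h, 1.63 at MII, 1.38 in adults and 2.70 in dcKO. Rph3a, another Rab3 and Rab27 effector, had log2 fold changes of -1.51, -0.60, -0.82 and -1.01 in the same order. Myrip, which ties Rab27a granules to myosin, had -1.16, -0.92, -0.67 and -1.86, and Eea1, the Rab5 tether of early endosomes, -0.52, -0.76, -0.35 and -1.36. Rab3ip, a GEF for Rab8, had the opposite sign to Rab8b, at 1.01, 1.00, 0.82 and 0.78. Rab3gap1, of the Rab3 GAP complex and counted here among the GEFs, had -0.66, -0.41, -0.49 and -0.54, and the GAP Evi5l had 2.52, 1.957, 1.47 and 1.99.

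Chromatin at the promoters was read from the authors' peak lists of CUT&Tag on pooled oocytes, in which antibody-bound chromatin is cut and tagged in place, with 3 lists a group. Within 1000 bases of the start, H3K27me3, the mark of Polycomb repression, had a peak in 2 or more lists at 4 of 48 Rab promoters in adult controls (8.33% against 19.8% of all promoters) and 8 in adult Dis3cKO (16.7% against 24.3%). At p20 it was 6 in controls (12.5% against 24.5%) and 7 in dcKO (14.6% against 26.8%). Rab3b, Rab6b, Rab15 and Rab33a were marked in every H3K27me3 group. RNA polymerase II had such peaks at 0 Rab promoters in adult controls (2.04% of all), at Rab1b, Rab5a and Rab24 in adult Dis3cKO (6.25% against 6.33%) and at Rab24, Rab35 and Rab40b in p20 controls (6.25% against 7.45%). With a window of 500 bases the polymerase II count in adult Dis3cKO was 0, against 3.88% of all promoters. The promoter of Rab8a printed above had no peak in any list, and that of Rab8b had one in a single polymerase II list of adult controls. The H3K27me3 lists held 87394 to 202628 peaks in adult controls, 224934 to 276316 in adult Dis3cKO, 151535 to 159895 in p20 controls and 244827 to 299716 in dcKO. Those of polymerase II held 19697 to 35843 in adult controls, 30311 to 122606 in adult Dis3cKO and 74287 to 82446 in p20 controls. Promoter counts were not adjusted for the size of a list, and differences in these counts were not tested.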

How the data were processed

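Gene counts were deposited by the authors as raw counts for each single-oocyte library, with separate counts of the ERCC spike-in RNA; the submitters' processing notes name cutadapt 2.5, FastQC 0.11.8, STAR 2.7.2a, SAMtools 1.9, HTSeq 0.9.1, R 3.5.1, DESeq2 1.24.0, SEACR and genome build mm10, without saying which step made which file. The annotation and the strand setting are not given in the sources used here. Peak lists were deposited by the authors with the total and maximum signal of each peak, made from reads sampled to an equal number for each library, per the labels' design text. The IgG lists were not used here.

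Counts were fitted in R 4.3.3 with edgeR 4.0.16 (TMM scaling, filterByExpr, quasi-likelihood F test, Benjamini-Hochberg adjustment over all genes tested, threshold 0.05). One fit covered the 6 poly(A) groups, another the adult RiboMinus groups, another the 4 p20 groups and another all 6 RiboMinus groups for contrasts of adult with p20. Errors are standard errors of log2 fold changes, levels are TMM-scaled CPM, and a group at 0 was given a floor of 3 counts over the group; such limits cover counting error only. Depth sets the precision: members that failed the filter were not tested. Members to name were taken from the called members with the 5 largest changes in each direction of a comparison. The compartment markers (Rab1a, Rab3a, Rab5a, Rab6a, Rab7, Rab8a, Rab11a, Rab14, Rab27a and Rab35) and paralogs were added. Not all of these are printed for every comparison, among them dcKO against each single knockout and MII against GV in Dis3cKO. Other called members were added after their values were seen. The members and lists were chosen with earlier results of these data known. Scripts were tested on simulated counts. Alternatives were DESeq2 1.42.0, ERCC scaling, no filter, only the groups compared, a replicate block, counts summed by title tag, all RiboMinus groups in one fit and left-out libraries, some chosen after their values were seen. Samples were grouped by their titles, stage and genotype labels. Library numbers were not taken to pair oocytes, since no pair of groups had every same-numbered correlation over 0.1. Levels of different genes were not ranked, since no transcript lengths were used. Promoter sequences and gene starts came from RefSeq tables of build GRCm38.p6, and a promoter counted as under a peak within 1000 bases of its start in at least 2 of 3 lists.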

Additional observations from a re-analysis of the deposited data

Results flagged for a closer look

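Single libraries stood apart from the rest of their group in 13 of the 168 groups checked over 19 genes by Dixon's test, which chance passes in about 1 of 20 groups. In CPM, with the nearest other library after it, these were Rab3c at 3.73 in GV3h control 7 (1.87) and at 3.07 in p20 control 2_1 (0.996), Rab3d at 199 in GV3h control 1 (240.0), Rab5a at 46.5 in adult Dis3cKO AM1713_1 (31.1), and Rab5c at 126 in adult Dis3cKO AM1757_4 (109). Rab8a was 53.2 in GV control 1 (70.0), Rab24 was 4.37 in GV control 2 (2.08) and 0.321 in MII control 8 (0.124), and Rab25 was 11.7 in GV control 8 (5.92) and 0.944 in MII control 2 (0.216). Rab36 was 7.24 in MII control 5 (1.95) and 5.44 in adult control AM1758_3 (3.67), and Rab40c was 4.82 in MII control 8 (1.95).

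Response to Dis3 loss was not the same at 2 stages for 10 gene and contrast pairs by edgeR's interaction test. The MII effect minus the GV effect was 3.26 for Rab24, -0.46 for Rab2a, 0.40 for Rab38, 0.96 for Rab8a and -0.63 for Rab8b. The adult effect minus the p20 effect in RiboMinus libraries was 4.47 for Rab24, 0.61 for Rab3b, 0.49 for Rab8a, -0.82 for Rab8b and -0.75 for Rab9. With ERCC scaling the MII minus GV effect of Rab8b was -0.006 (adjusted p 0.99), and the adult minus p20 effects of Rab8b and Rab8a missed the threshold (adjusted p 0.075 and 0.62).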

How the results depend on the processing

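Of the calls on named members, 40 were lost with ERCC scaling, 49 with counts summed by title tag, 20 with no filter (adjusted p 0.051 to 0.20) and 10 without p20 control library 2_4. ERCC scaling called 0 members for GV3h against GV and for Exosc10 loss, 46 for MII against GV in controls, 17 for the MII minus GV effect and for dcKO against Exosc10cKO, 20 for adult Dis3 loss, 9 beyond the sum of single losses, 40 for adult against p20 and 1 for the adult minus p20 effect. It reversed, in MII against GV controls, Rab6a (-0.50), Rab14 (-0.58), Rab26 (-0.64), Rab12 (-0.71), Rab18 (-0.94), Rab8b (-1.06), Rab2a (-1.15), Rab3d (-1.18) and Rab11a (-1.60). In Dis3cKO it reversed Rab3d (-0.30), Rab12 (-0.43), Rab2a (-0.99) and Rab8b (-1.06). For MII Dis3 loss Rab1b became 0.069, and the MII minus GV effect of Rab2a 0.16. The MII falls of Rab6a and Rab10 were smaller than the 0.36 by which this scaling moved the median of all genes there. In adult Dis3 loss Rab5a became -0.050, Rab35 -0.22, Rab1a -0.24, Rab11a -0.36 and Rab8a -0.38. In adult against p20 Rab36 became -0.43, Rab5c -1.39, Rab6a -1.41, Rab23 -1.44 and Rab8b -1.49, and in dcKO Rab8a became -0.018. Among uncalled values, Rab8b in p20 Dis3cKO ranged from -0.087 to 0.040 over left-out libraries, the highest without library 1_2. The cause was not tested.

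Counts summed by title tag, which leave 2 samples a group, gave 0 calls for adult Dis3 loss, p20 Dis3 loss, Exosc10 loss, adult against p20 and the adult minus p20 effect. They gave 15 and 17 of 51 for dcKO against Dis3cKO and Exosc10cKO (28.5% and 26.6% of all genes), and 4 beyond the sum (6.25%). Fits on only the groups compared gave 8 for MII Dis3 loss, 4 for GV3h against GV, 5 for the GV3h minus GV effect and 4 for Exosc10 loss (4 of 42, against 8.31% of 14424 genes). No filter gave 1 for GV3h against GV (0.818% of all genes), 1 for p20 Dis3 loss (3.04%) and 3 for the adult minus p20 effect (4.65%). DESeq2 gave 2 for the GV3h minus GV effect (3.13%). Left-out libraries gave 0 to 2 calls for that effect, 1 to 3 for GV3h against GV, 5 to 10 for adult against p20, 3 to 5 for the adult minus p20 effect, 6 for adult Dis3 loss and 17 to 24 beyond the sum. Stronger peaks gave 5 H3K27me3 promoters in adult Dis3cKO (17.3% of all promoters), and a 500-base window 0 polymerase II promoters there (3.88% of all).

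The replicate block took GV3h against GV to 1 call and no other count by more than 1.5 times. It ended 7 calls: Rab37 at MII (1.07, adjusted p 0.42), Rab14 at GV (-0.19, adjusted p 0.084), Rab31 at GV3h (0.21, adjusted p 0.64), Rab38 for GV3h against GV (0.30, adjusted p 0.064), Rab5c and Rab3a in dcKO (-0.23 and 0.63, adjusted p 0.052 and 0.10) and Rab5b beyond the sum (0.67, adjusted p 0.053). Of same-numbered pairs, 27 of 142 in poly(A) and 13 of 48 at p20 had a correlation of deviations over 0.1. The largest shares were 5 of 8 for GV control with GV Dis3cKO (mean 0.094 against -0.006 for other pairs) and 4 of 8 for dcKO with Exosc10cKO (0.108 against -0.015), and no pair of groups had all. Depth limits what low members can show, and counts cannot separate a member from an overlapping gene.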

Other observations

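GV3h Dis3cKO libraries 15 and 16 were the closest pair within any group, their counts differing by 2.36 times the counting noise at the median, against 5.11 for the next pair. Left out, library 16 removed the GV3h call of Rab31.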
